A study of Mus musculus with 6 samples.

Results

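Among the genes that encode secreted cytokines of the damage response, 10 were followed here in TRAMP-C2 cells: Il6, Lif, Csf1, Csf2, Il11, Il1a, Il15, Il33, Il34 and Tnf. They were chosen by name, with earlier results of these data known. Each was found in the deposited count table by its gene identifier, with symbols from GENCODE release M21. The 10 genes thus stand for 10 of 54446 rows. Of these, 5 (Csf1, Lif, Il33, Il34 and Il6) reached at least 10 counts in at least 2 libraries and were tested together with the other genes past that limit, 14956 in all. The other 5 (Il15, Il11, Il1a, Csf2 and Tnf) stayed below it.

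TRAMP-C2 is a mouse prostate cancer cell line, and per the labels its strain was C57BL/6 and its sex male. Cells were left untreated (control) or exposed for 24 h to 2 µM oxaliplatin or 2 µM cisplatin, and poly(A) RNA of 2 libraries per group was sequenced. The medium of all groups held bovine insulin and an androgen precursor, spelled dehydroisoantrosterone in the labels. All libraries came from this 1 line, and no source used here says whether replicates were separate cultures, so p values measure only the spread between libraries, which may be technical. Both drugs are platinum complexes that bind DNA. Cisplatin carries ammine and chloride ligands, whereas oxaliplatin carries a diaminocyclohexane and an oxalate ligand.

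Libraries held 21345312 to 24041767 counts. A gene with 3 counts in a library thus stands at 0.125 to 0.141 CPM, the count scaled to the library total. Markers of the labelled cell type were mixed. Of 8 prostate epithelium markers 5 were tested, while Krt5 had 0 counts in all libraries and Epcam at most 2 counts, and Cdh1, which encodes E-cadherin, stood at 10.2 to 15.4 TPM. The 6 mesenchymal markers summed to 5050 to 6300 TPM against 42.2 to 50.8 TPM for the epithelial ones. TPM here is the count divided by the summed exon length of the gene and scaled to the same total in each library, and it is the only scale on which levels of different genes are compared.

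Cytokines are secreted proteins through which a damaged cell signals to itself, to its neighbours and to immune cells. Lif, Il6 and Il11 encode ligands of the interleukin-6 family, whose receptors share the signalling chain gp130 (gene Il6st) and activate STAT3. Csf1 and Il34 encode the ligands of the macrophage growth factor receptor (gene Csf1r), Il33 and Il1a encode alarmins of the interleukin-1 family that reach the outside largely when cells are damaged, and Tnf, Csf2 and Il15 encode a pro-inflammatory cytokine, a myeloid growth factor and a growth factor of NK cells and CD8 T cells. Many cytokine genes are switched on by the transcription factors NF-κB, AP-1 and C/EBP, and many of their mRNAs are short-lived through AU-rich elements.

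In these cells Csf1 was the dominant cytokine mRNA of the 10, with Il33, Lif and Il34 after it. Csf1 rose with oxaliplatin and differed little between cisplatin and control. Lif rose with oxaliplatin and Il33 with cisplatin, both calls that were lost when certain single libraries were left out. The Il33 call with cisplatin was also lost with another scaling and with the replicate number in the fit. Il33 was lower in oxaliplatin than in cisplatin. Il6 stood at a few counts in control and at 17 and 15 counts in cisplatin libraries, and Tnf had no count in any library.

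The promoter sequences of the 3 members with a match to the NF-κB motif are shown first. Genes of NF-κB, AP-1 and C/EBP are taken up further on. RefSeq promoter windows (build GRCm38.p6, 250 bases before to 50 bases after a start site) matched 8 of the 10 genes, with 2 start sites each for Il33 and Il11. Il15 and Il34 had no entry in the table used. The 250 bases before the start site are printed from 5′ to 3′ on the strand of the gene, with motif matches in capitals. They lie at chr3:107760470-107760719 on the minus strand for Csf1, at chr11:4257318-4257567 on the plus strand for Lif, and at chr5:30012864-30013113 on the plus strand for Il6.
Csf1: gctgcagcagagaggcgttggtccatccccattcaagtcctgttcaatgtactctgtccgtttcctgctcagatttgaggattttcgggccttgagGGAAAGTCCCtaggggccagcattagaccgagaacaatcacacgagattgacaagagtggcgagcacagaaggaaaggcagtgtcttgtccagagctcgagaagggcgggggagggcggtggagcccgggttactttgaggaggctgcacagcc
Lif: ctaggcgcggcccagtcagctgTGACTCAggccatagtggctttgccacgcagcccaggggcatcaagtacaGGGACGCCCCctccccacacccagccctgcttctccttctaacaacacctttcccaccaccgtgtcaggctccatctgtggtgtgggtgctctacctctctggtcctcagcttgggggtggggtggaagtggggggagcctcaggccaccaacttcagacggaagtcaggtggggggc
Il6: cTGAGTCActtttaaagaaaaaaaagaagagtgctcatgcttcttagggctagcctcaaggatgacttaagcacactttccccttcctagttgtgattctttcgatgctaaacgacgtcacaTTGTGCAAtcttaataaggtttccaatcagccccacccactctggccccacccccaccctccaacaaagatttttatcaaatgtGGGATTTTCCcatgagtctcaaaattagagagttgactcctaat

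In the Csf1 window the capitals mark a match to the NF-κB consensus 154 to 145 bases before the start site. In that of Lif they mark AP-1 (228 to 222 bases before) and NF-κB (178 to 169 bases before, a match on both strands). In that of Il6 they mark AP-1 (249 to 243 bases before), C/EBP (128 to 121 bases before) and NF-κB (44 to 35 bases before). The motifs searched on both strands were the NF-κB consensus, AP-1 (TGANTCA), C/EBP (TTNNGNAA), CRE (TGACGTCA), STAT (TTCNNNGAA) and the TATA box (TATAAA), and no match of one overlapped another in these 3 sequences.

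Of all 32851 promoter windows of this length, 8.46% held the NF-κB motif, 7.81% AP-1, 40.7% C/EBP, 1.79% CRE, 8.3% STAT and 13.6% the TATA box, and 0.539% held both NF-κB and AP-1. Both windows of Il33 held C/EBP and a TATA box, and no match to NF-κB or AP-1. The window of Tnf held C/EBP and a TATA box, that of Csf2 held C/EBP, that of Il1a held AP-1, C/EBP and a TATA box, and 1 of the 2 windows of Il11 held AP-1. Such a match is a description of letters and not evidence of a bound site.

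**Figure D1:**
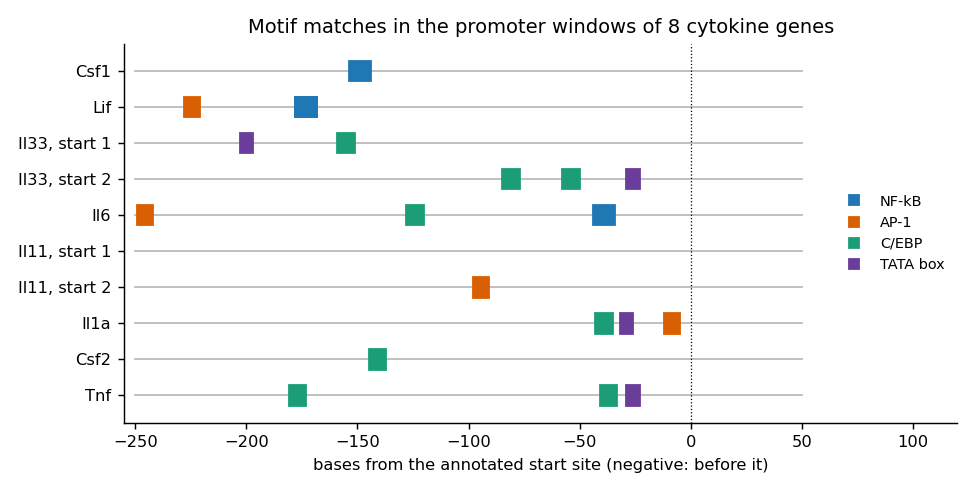
Matches to sequence motifs in the promoter windows of 8 cytokine genes, by distance in bases from the annotated start site (dotted line), with 1 row per start site and 1 colour per motif. NF-κB matches appear for Csf1, Lif and Il6, and C/EBP and TATA box matches for both start sites of Il33.

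A sequence feature at the other end of the mRNA was also looked up. The nonamer TTATTTATT, an AU-rich element through which proteins such as TTP (gene Zfp36) speed mRNA decay, was searched in the 3′ untranslated region after the levels below had been seen. It occurred 5 times in Il11, 5 times in Tnf, 4 times in Csf2 and 2 times in Lif, and not in the other 6 members. Of protein-coding genes, 8.12% of the 12499 tested and 7.32% of all 21699 held it. The first match of each member that held it is printed with its surroundings, capitals marking the nonamers.
Il11: aaaccagatcTTATTTATTTATTTATTttg
Tnf: tttgcacttaTTATTTATTATTTATTTATT
Csf2: ttttaaatatTTATTTATTTATTTATTTAT
Lif: aaaggggcctTTATTTATTatttaaaactt

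Il6 held 10 copies of the shorter core ATTTA without the nonamer. Csf1 held 4, Il33 held 3, and the median over tested protein-coding genes was 2. Longer regions hold more. From 2000 to 4000 bases, the range of Csf1 (2111) and Lif (3180), the median was 4 and 12.9% held the nonamer. Among the 4 members with the nonamer, Lif alone passed the limit on counts, and among the 6 without it Csf1, Il33, Il34 and Il6 did.

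Csf1 stood highest of the 10 per length, at 183 and 194.8 TPM in control, 261.8 and 251.1 TPM in oxaliplatin and 175.1 and 187 TPM in cisplatin libraries. Only 2.41% of the 28549 genes with a count stood above its mean level. Csf1 alone made up 79.4 to 88.6% of the summed TPM of the 10 members, and Csf1 and Il33 together 95.7 to 97.1%.

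Il33 followed at 26.74 and 31.19 TPM in control, 23.34 and 23.49 TPM in oxaliplatin and 35.94 and 33.24 TPM in cisplatin. Lif stood at 4.16 to 7.89 TPM and Il34 at 1.07 to 2.03 TPM over all libraries. In each group the ranges of Csf1, Il33, Lif and Il34 did not overlap, in this order, and Il34 stood above the remaining 6 members. The other 6 were at or below 0.824 TPM, and several neighbours among them overlapped, such as Il11 and Il1a in control, Il6 and Il11 in oxaliplatin, and Il11, Il15 and Il1a in cisplatin.

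**Figure D2:**
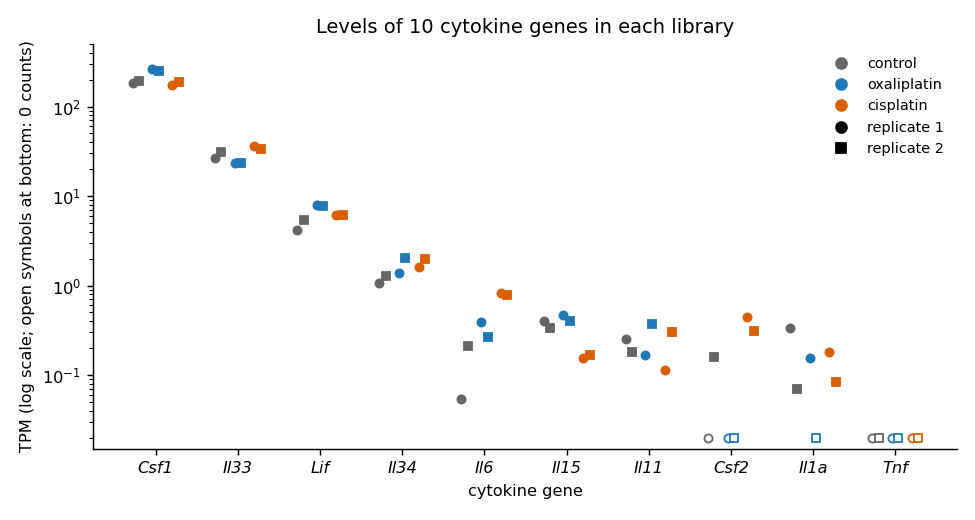
TPM of each of the 10 cytokine genes in each library on a log axis, with colours for the 3 groups and circles and squares for replicates 1 and 2, and open symbols at the bottom for libraries with 0 counts. Csf1 stands at 175.1 to 261.8 TPM, whereas Tnf has 0 counts in all 6 libraries.

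Oxaliplatin was compared with control to ask which cytokine mRNAs responded to this drug. Of the 5 members tested, 2 rose (Csf1 and Lif) and 0 fell at a DESeq2 adjusted p under 0.05. In the fall direction 1 member (Il33) had an unadjusted DESeq2 p under 0.05 and the same 1 was called by edgeR. Over all genes tested, 10.7% rose and 9.5% fell by the same rule. The oxaliplatin and control libraries did not overlap for 5 of the 5 members tested, as they did not for 64.8% of all genes tested, so that lack of overlap says little about these members.

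Csf1 (ENSMUSG00000014599, chr3:107741048-107760469, minus strand, build GRCm38) had normalised counts, which are counts divided by the size factor of the library, of 7653 and 8007 in control, 10917 and 10573 in oxaliplatin, and 7698 and 8059 in cisplatin. Both oxaliplatin libraries lay above the other 4, and the control and cisplatin libraries were interleaved. The mean rose from 7830 ± 250.3 (SD, n = 2) in control to 10745 ± 242.7 (SD, n = 2) in oxaliplatin, a log2 change of 0.46 ± 0.04 (SE) at a DESeq2 adjusted p of 4.27e-22, or 1.37-fold with a 95% interval of 1.29 to 1.46. This is above the median absolute log2 change of 0.325 among all genes called in this comparison. The call held in each alternative fit that tests against no change, with adjusted p from 1.31e-22 to 4.34e-05 (DESeq2 and edgeR) and at most 4.6e-09 (DESeq2) when any 1 library was left out.

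Lif (ENSMUSG00000034394, chr11:4257557-4272514, plus strand) had normalised counts of 143 and 182 in control, 271 and 267 in oxaliplatin, and 224 and 218 in cisplatin. The groups did not overlap, with control lowest and oxaliplatin highest. In oxaliplatin Lif rose by a log2 change of 0.72 ± 0.20 (SE) at a DESeq2 adjusted p of 0.00184, or 1.65-fold with a 95% interval of 1.26 to 2.16. That call was lost without control replicate 1 (DESeq2 adjusted p = 0.119), without oxaliplatin replicate 1 (0.108) and without oxaliplatin replicate 2 (0.0894). The SD over libraries was 27.6 normalised counts in control, 2.82 in oxaliplatin and 4.63 in cisplatin.

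Il33 (ENSMUSG00000024810, chr19:29925114-29960718, plus strand) had normalised counts of 611 and 700.5 in control, 532 and 540 in oxaliplatin, and 864 and 783 in cisplatin. The 3 groups did not overlap, with oxaliplatin lowest and cisplatin highest. Against control the log2 fold change with oxaliplatin was -0.29 ± 0.12 (SE; DESeq2 adjusted p = 0.0607), with a 95% interval of -0.53 to -0.05. The same change passed in edgeR (adjusted p = 0.0212) and in DESeq2 with total-count scaling (adjusted p = 0.0483) or with genes under 10 counts in any library left out (adjusted p = 0.0433), and in none of the other alternatives, so that the call depended on tool, scaling and filter.

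Cisplatin was compared with control in the same way. Of the 5 members tested, 1 rose (Il33) and 0 fell, against 15.7% and 12.4% of all genes tested. For a fall the count was 0 also at an unadjusted DESeq2 p under 0.05 and in edgeR. The libraries of these groups did not overlap for 4 of the 5 members, all but Csf1, against 69.4% of all genes tested. With edgeR Il33 and Lif were called higher, and so was Il6, which entered the test only through its high cisplatin counts.

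Il33 rose with cisplatin from 656 ± 63.1 to 823 ± 57.2 normalised counts (SD, n = 2 each), a log2 change of 0.33 ± 0.12 (SE) at a DESeq2 adjusted p of 0.0217, or 1.26-fold with a 95% interval of 1.07 to 1.47. The call did not hold in all alternatives. Leaving out a library lowered the number of calls over all genes tested, also where that library was in neither group compared. A loss there thus does not show that the call rested on the library left out. It was lost with the replicate number as a block (DESeq2 adjusted p = 0.0958), with total-count scaling (0.0584) and without control replicate 1 (0.312), cisplatin replicate 1 (0.339), cisplatin replicate 2 (0.0947), oxaliplatin replicate 1 (0.0741) or oxaliplatin replicate 2 (0.071), and it remained without control replicate 2 (0.0395).

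Csf1 differed between cisplatin and control by a log2 value of 0.01 ± 0.05 (SE; DESeq2 adjusted p = 0.916), with a 95% interval of -0.08 to 0.10. On the linear scale this interval runs from 0.946-fold to 1.07-fold. For Lif the log2 fold change with cisplatin was 0.44 ± 0.20 (SE; DESeq2 adjusted p = 0.0764; edgeR adjusted p = 0.0142), with a 95% interval of 0.05 to 0.83.

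Il6 (ENSMUSG00000025746, chr5:30013114-30019981, plus strand) had raw counts of 1 and 4 in control, 8 and 5 in oxaliplatin, and 17 and 15 in cisplatin libraries. No group overlapped another. Summed over each group this is 0.114 CPM in control (exact 95% Poisson interval 0.0371 to 0.267), 0.283 CPM in oxaliplatin (0.151 to 0.485) and 0.701 CPM in cisplatin (0.479 to 0.989), intervals that cover counting error only. Il6 passed the limit on counts only through the cisplatin libraries, so that being tested already required a high cisplatin value. The log2 fold change with cisplatin was 2.67 ± 1.07 (SE), with a 95% interval of 0.57 to 4.78, and DESeq2 gave no adjusted p because its independent filtering removes genes of low mean count. The edgeR adjusted p was 0.00758, and the DESeq2 adjusted p without independent filtering 0.0476. With oxaliplatin the log2 fold change of Il6 was 1.33 ± 1.12 (SE), with a 95% interval of -0.87 to 3.52 (edgeR adjusted p = 0.21).

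Il34 (ENSMUSG00000031750, chr8:110741829-110805924, minus strand) had raw counts of 16 and 20 in control, 23 and 31 in oxaliplatin, and 27 and 31 in cisplatin. Both drug groups lay above control. The log2 fold change was 0.54 ± 0.56 (SE; edgeR adjusted p = 0.277) with oxaliplatin and 0.68 ± 0.56 (SE; DESeq2 adjusted p = 0.391) with cisplatin, with 95% intervals of -0.56 to 1.65 and -0.42 to 1.78, so that no difference was detectable at this depth. Antisense genes overlap 75 and 22 bases of its 1959 exon bases, and whether counting used strand is not given in the sources used here.

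**Figure D3:**
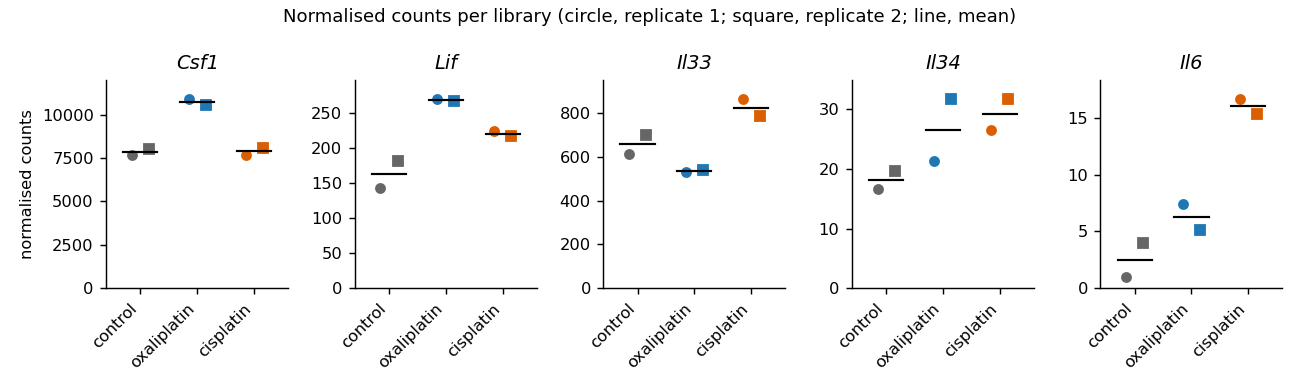
Normalised counts of the 5 tested cytokine genes in each library (circles, replicate 1; squares, replicate 2; lines, group means), each panel on its own linear axis from 0. For Csf1 both oxaliplatin libraries (10917 and 10573) lie above the other 4, and for Il33 both cisplatin libraries (864 and 783) lie above the other 4.

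The 2 platinum compounds were also compared with each other at the matched dose of 2 µM and the matched time of 24 h. Of the 5 members tested, 1 was higher with oxaliplatin (Csf1) and 1 lower (Il33), against 8.62% and 11.3% of all genes tested. Groups did not overlap for 4 of the 5 members, all but Il34, against 68.0% of all genes tested.

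Csf1 was 1.36-fold higher with oxaliplatin than with cisplatin (log2 fold change 0.45 ± 0.04, SE; DESeq2 adjusted p = 2.49e-21), with a 95% interval of 1.28 to 1.45. Il33 stood at 0.651 of its cisplatin level with oxaliplatin (log2 fold change -0.62 ± 0.12, SE; DESeq2 adjusted p = 4.26e-06), with a 95% interval of 0.553 to 0.766. Both calls held in each fit with 1 library left out, with DESeq2 adjusted p of at most 9.88e-09 for Csf1 and at most 0.0195 for Il33.

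For Lif the drugs differed by a log2 value of 0.28 ± 0.19 (SE; DESeq2 adjusted p = 0.309), with a 95% interval of -0.10 to 0.66. Although Lif passed against control with oxaliplatin and not with cisplatin, the difference between the drugs was therefore not shown. For Il6 the log2 value was -1.35 ± 0.95 (SE; edgeR adjusted p = 0.0789), with a 95% interval of -3.20 to 0.51, and for Il34 it was -0.14 ± 0.54 (SE; edgeR adjusted p = 0.797), with a 95% interval of -1.20 to 0.93.

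**Figure D4:**
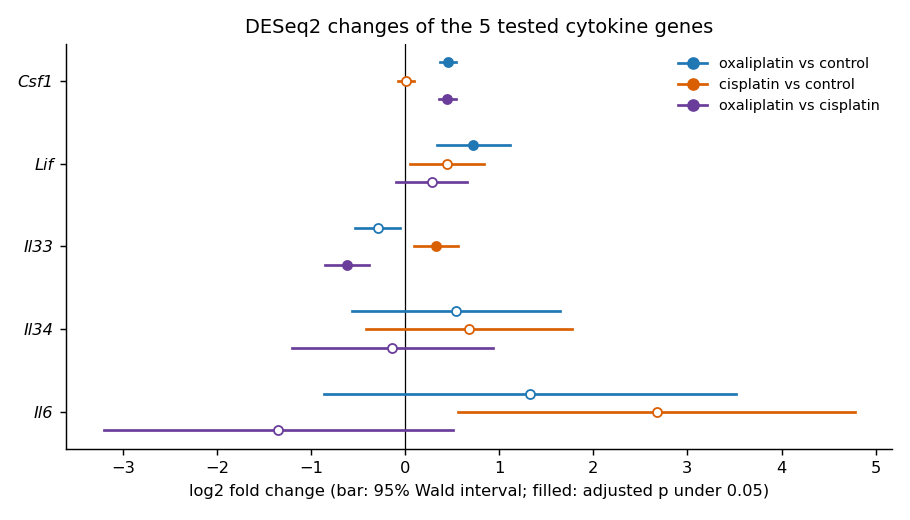
DESeq2 log2 fold changes of the 5 tested cytokine genes in the 3 comparisons, with 95% Wald intervals as bars and filled points for an adjusted p under 0.05. Csf1 has narrow intervals above 0 in both comparisons of oxaliplatin, Il33 lies on opposite sides of 0 for the 2 drugs, and the intervals of Il6 and Il34 are wide.

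The 5 members below the limit on counts were at the edge of detection and were not tested. Il15 had 7 and 6 counts in control, 9 and 7 in oxaliplatin, and 3 and 3 in cisplatin. Summed per group this is 0.297 CPM (exact 95% Poisson interval 0.158 to 0.508), 0.349 CPM (0.199 to 0.567) and 0.131 CPM (0.0482 to 0.286), and the 3 intervals overlap. Il11 had 4 and 3, 3 and 6, and 2 and 5 counts in control, oxaliplatin and cisplatin, with overlap among the groups.

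Il1a had 5.1 and 1.09 expected counts in control, 2.61 and 0 in oxaliplatin, and 3 and 1.3 in cisplatin, and 222 of its 1974 exon bases lie across from exons of an antisense transcript. Csf2 had 0 and 1 count in control, 0 and 0 in oxaliplatin, and 3 and 2 in cisplatin. Tnf had 0 counts in all 6 libraries, for which a limit of 3 counts per group stands at 0.0686 CPM in control, 0.0654 CPM in oxaliplatin and 0.0657 CPM in cisplatin. The exact Poisson interval used for the other members, which is two-sided, ends at 0.0843, 0.0804 and 0.0808 CPM. At this depth no difference between groups was detectable for Tnf.

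Receptors for these ligands were read in the same cells. Of 19 receptor genes listed for the 10 cytokines, 14 were tested. With oxaliplatin 4 rose and 2 fell, against 10.7% and 9.5% of all genes tested. With cisplatin 3 rose and 3 fell, against 15.7% and 12.4%. The median log2 fold changes were 0.0736 and 0.159, beside -0.00285 and -0.000833 over all genes tested.

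In the interleukin-6 family, Il6st, which encodes the shared chain gp130, had normalised counts of 6746 and 7334 in control, 9229 and 9098 in oxaliplatin, and 7792 and 8220 in cisplatin. It rose with oxaliplatin by a log2 value of 0.38 ± 0.05 (SE; DESeq2 adjusted p = 1.08e-11) and with cisplatin by 0.19 ± 0.05 (SE; DESeq2 adjusted p = 0.00215), the latter not without control replicate 1 (0.0899) or cisplatin replicate 2 (0.125). Il11ra1, the receptor chain specific to interleukin-11, had normalised counts of 1472 and 1308 in control, 1035 and 1042 in oxaliplatin, and 949.9 and 924 in cisplatin. It fell by 0.42 on the log2 scale with oxaliplatin (SE 0.09; DESeq2 adjusted p = 6.09e-05) and by 0.57 with cisplatin (SE 0.09; DESeq2 adjusted p = 1.83e-08), calls that were kept in each fit with 1 library left out.

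Among the receptors of the members that moved, a few outside the naming rule were singled out after their values were seen. Lifr, the specific receptor chain for Lif, had normalised counts of 1545 and 1653 in control, 1522 and 1514 in oxaliplatin, and 1220 and 1310 in cisplatin. It fell with cisplatin by 0.34 on the log2 scale (SE of 0.08, with a DESeq2 adjusted p = 0.000203), a call lost without cisplatin replicate 1 (0.0629), while the log2 fold change with oxaliplatin was -0.08 ± 0.08 (SE; DESeq2 adjusted p = 0.557). Csf1r, the receptor of Csf1 and a receptor of Il34, stood at 0.169 to 0.402 TPM per library, where Csf1 stood at 175.1 to 261.8 TPM. Sdc1, also on the receptor list, stood at 97.1 ± 1.56 TPM in control (SD, n = 2). Its log2 fold change was 0.32 ± 0.05 with cisplatin (SE; DESeq2 adjusted p = 7.06e-08) and -0.12 ± 0.06 with oxaliplatin (SE; DESeq2 adjusted p = 0.0872).

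Il1rl1 encodes ST2, the receptor of interleukin-33, and had normalised counts of 171.2 and 166.5 in control, 316.6 and 287.6 in oxaliplatin, and 168.6 and 183.2 in cisplatin. Both oxaliplatin libraries lay above the other 4. It rose with oxaliplatin by a log2 value of 0.84 ± 0.19 (SE; DESeq2 adjusted p = 7.94e-05), a call lost without oxaliplatin replicate 1 (0.0711), and the log2 fold change with cisplatin was 0.06 ± 0.19 (SE; DESeq2 adjusted p = 0.863).

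Between the drugs Il1rl1 differed by a log2 value of 0.78 ± 0.19 (SE; DESeq2 adjusted p = 0.000279), but not past the threshold without oxaliplatin replicate 1 (0.11) or cisplatin replicate 1 (0.0699). Its partner chain Il1rap rose with oxaliplatin by a log2 value of 0.47 ± 0.11 (SE; DESeq2 adjusted p = 0.000419), a call lost without either oxaliplatin replicate (0.0561 and 0.0663). The receptor gene Il1rl1 was thus higher, and the ligand gene Il33 lower, with oxaliplatin than with cisplatin.

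The receptors of Tnf were both well counted although Tnf had no count. Tnfrsf1b, the second TNF receptor, rose with cisplatin from 1876 ± 5.92 to 2538 ± 125 normalised counts (SD, n = 2 each; log2 fold change 0.44 ± 0.07, SE; DESeq2 adjusted p = 9.36e-10). With oxaliplatin it stood at 2190 ± 2.03 (SD, n = 2; log2 fold change 0.22 ± 0.07, SE; DESeq2 adjusted p = 0.00506), a call lost without either control replicate (0.0668 and 0.0815) or either oxaliplatin replicate (0.146 and 0.146). Tnfrsf1a, the first TNF receptor, fell by 0.28 on the log2 scale with oxaliplatin (SE 0.06; DESeq2 adjusted p = 7.21e-05; 0.0584 without oxaliplatin replicate 1) and by 0.36 with cisplatin (SE 0.06; DESeq2 adjusted p = 8.21e-08).

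**Figure D5:**
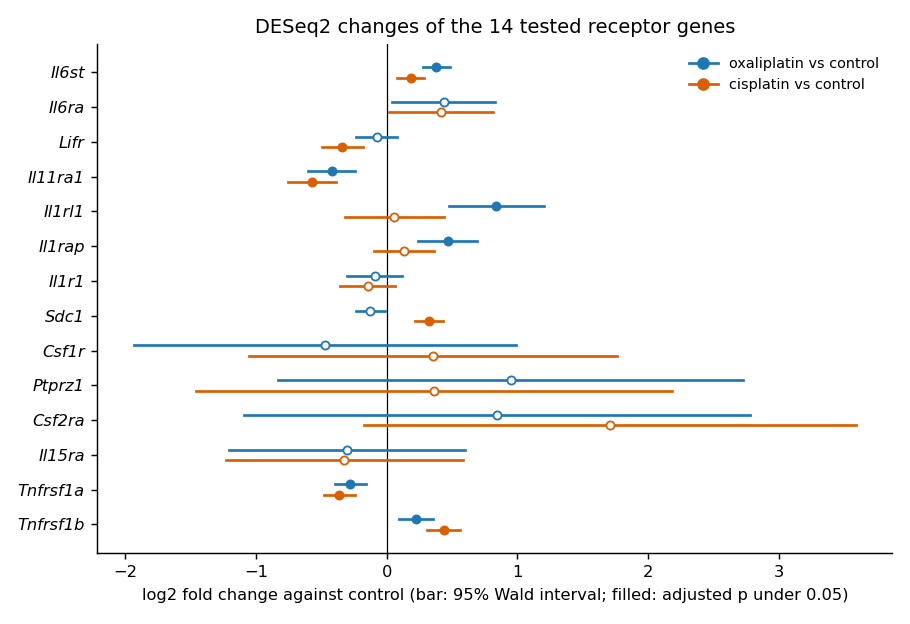
DESeq2 log2 fold changes against control of the 14 tested receptor genes of the 10 cytokines with oxaliplatin and with cisplatin, with 95% Wald intervals as bars and filled points for an adjusted p under 0.05. Il6st lies above 0 and Il11ra1 and Tnfrsf1a below 0 with both drugs, whereas Il1rl1 is filled with oxaliplatin and near 0 with cisplatin.

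The transcription factor list held 20 genes of the NF-κB, AP-1 and C/EBP families and their regulators, with Atf3 and Egr1. Motifs of these families are printed above, but some listed genes, such as Tnfaip3, do not encode proteins that bind them. Of the 20 genes 20 were tested. With oxaliplatin 12 rose and 0 fell, and with cisplatin 11 rose and 0 fell, with median log2 fold changes of 0.436 and 0.444. Over all genes tested the shares were 10.7% higher and 9.5% lower with oxaliplatin and 15.7% and 12.4% with cisplatin. The counts of falls were 0 also at an unadjusted DESeq2 p under 0.05 and in edgeR. Between the drugs 2 were higher and 7 lower with oxaliplatin, against 8.62% and 11.3% of all genes tested.

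Tnfaip3, which encodes the NF-κB inhibitor A20, rose from 367 ± 29.4 normalised counts in control to 753 ± 43.8 in oxaliplatin and 1068 ± 54.3 in cisplatin (SD, n = 2 each), by log2 values of 1.04 ± 0.12 and 1.54 ± 0.12 (SE; DESeq2 adjusted p = 2.06e-16 and 5.9e-37). Nfkb2, the precursor of the NF-κB subunit p52, rose by 0.55 ± 0.06 and 0.80 ± 0.06 (SE; DESeq2 adjusted p = 1.95e-16 and 1.98e-35). Junb, a subunit of AP-1, rose by 0.58 ± 0.10 and 1.26 ± 0.10 (SE; DESeq2 adjusted p = 1.34e-07 and 1.9e-35). Each of the 3 was also lower with oxaliplatin than with cisplatin, by 0.50, 0.25 and 0.68 on the log2 scale (DESeq2 adjusted p = 6.86e-05, 0.000317 and 4.16e-11). This difference between the drugs was lost for Tnfaip3 without oxaliplatin replicate 2 (0.0506) or cisplatin replicate 2 (0.0578), and for Nfkb2 without oxaliplatin replicate 2 (0.107), cisplatin replicate 1 (0.0545) or cisplatin replicate 2 (0.0579).

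Of 12 mRNA decay regulators tested, 2 rose and 1 fell with oxaliplatin, against 10.7% and 9.5% of all genes tested. With cisplatin 6 rose and 2 fell, against 15.7% and 12.4%. Their median log2 fold changes were 0.0537 with oxaliplatin and 0.191 with cisplatin. Zfp36l2 and Zfp36l1, which bind AU-rich elements, went in opposite directions, Zfp36l2 by 0.21 ± 0.06 and 0.58 ± 0.06 and Zfp36l1 by -0.29 ± 0.06 and -0.16 ± 0.06 with oxaliplatin and cisplatin (log2 fold change, SE; DESeq2 adjusted p = 0.0029, 7.61e-22, 7.93e-06 and 0.0175). Zfp36, added outside the naming rule, had log2 fold changes of -0.10 ± 0.16 with oxaliplatin and 0.52 ± 0.15 with cisplatin (SE; DESeq2 adjusted p = 0.702 and 0.00347). Elavl1, which encodes the AU-rich element binding and stabilising protein HuR, rose by 0.16 ± 0.06 and 0.25 ± 0.06 (SE; DESeq2 adjusted p = 0.0292 and 0.000146). The oxaliplatin call of Zfp36l2 was lost without control replicate 2 (0.118) or either oxaliplatin replicate (0.176 and 0.0797), and the cisplatin call of Elavl1 without cisplatin replicate 2 (0.0578). The cisplatin call of Zfp36l1 and the oxaliplatin call of Elavl1 were lost whichever library was left out (DESeq2 adjusted p of 0.0744 to 0.257 and 0.109 to 0.335).

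Of 9 tested genes of cytokine processing and shedding, 0 rose and 3 fell with oxaliplatin, against 10.7% and 9.5% of all genes tested. With cisplatin 1 rose and 1 fell, against 15.7% and 12.4%. Their median log2 fold changes were -0.164 with oxaliplatin and 0.0209 with cisplatin. The count of rises with oxaliplatin was 0 also at an unadjusted DESeq2 p under 0.05 and in edgeR. Capn1, a calpain subunit, fell by 0.39 and by 0.21 on the log2 scale (SE of 0.07 each, with a DESeq2 adjusted p = 1.48e-07 and 0.00708), the cisplatin call being lost without control replicate 1 (0.192) or either cisplatin replicate (0.161 and 0.101). Adam10, a sheddase of membrane proteins, fell by 0.24 with oxaliplatin (SE 0.05; DESeq2 adjusted p = 3.14e-05).

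Of 22 tested signalling and feedback genes, 2 rose and 4 fell with oxaliplatin, against 10.7% and 9.5% of all genes tested. With cisplatin 3 rose and 2 fell, against 15.7% and 12.4%. Their median log2 fold changes were -0.151 with oxaliplatin and -0.0172 with cisplatin. Irak1, a kinase below the receptors of interleukin-1 and interleukin-33, fell by 0.20 with oxaliplatin and by 0.32 with cisplatin on the log2 scale (SE of 0.06 each, with a DESeq2 adjusted p = 0.00804 and 3.2e-06). Its oxaliplatin call was lost whichever library was left out (DESeq2 adjusted p of 0.0556 to 0.21). Jak1, a kinase below gp130, rose by 0.23 ± 0.05 with cisplatin (log2 fold change, SE; DESeq2 adjusted p = 1.48e-05), and so did Ptpn11, a phosphatase below the same chain, by 0.18 ± 0.05 (SE; DESeq2 adjusted p = 0.000918), the latter not without control replicate 1 (0.0535) or cisplatin replicate 2 (0.113).

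Of 41 other cytokine genes listed, 18 were tested. By the DESeq2 rule 10.7% of all genes tested rose and 9.5% fell with oxaliplatin, and 15.7% and 12.4% with cisplatin. With oxaliplatin 0 passed in DESeq2, 1 had an unadjusted p under 0.05, and edgeR called 1 higher and 1 lower, while with cisplatin 1 rose (Tgfb1, log2 fold change 0.34 ± 0.13, SE; DESeq2 adjusted p = 0.0229) and 1 fell (Tgfb3, log2 fold change -0.17 ± 0.07, SE; DESeq2 adjusted p = 0.0436). Both calls were lost whichever library was left out (DESeq2 adjusted p of 0.0627 to 0.31 for Tgfb1 and 0.0708 to 0.409 for Tgfb3). Ctf1, a further ligand of the interleukin-6 family, had log2 fold changes of -0.28 ± 0.22 and -0.49 ± 0.23 (SE; DESeq2 adjusted p = 0.397 and 0.0851).

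Of 10 p53 target genes, 3 rose and 4 fell with oxaliplatin, against 10.7% and 9.5% of all genes tested. With cisplatin 4 rose and 1 fell, against 15.7% and 12.4%. Lower with oxaliplatin than with cisplatin were 8, against 11.3% of all genes tested. Plk2, a p53-induced kinase, rose by log2 values of 1.19 ± 0.07 and 1.37 ± 0.07 (SE; DESeq2 adjusted p = 2.81e-56 and 1.01e-75) and Phlda3 by 0.33 ± 0.10 and 0.54 ± 0.09 (SE; DESeq2 adjusted p = 0.0034 and 1.73e-07), whereas Btg2 fell by 0.77 and 0.33 (SE 0.13 each; DESeq2 adjusted p = 8.44e-08 and 0.0323). The cisplatin call of Btg2 was lost whichever library was left out (DESeq2 adjusted p of 0.106 to 0.378), and the oxaliplatin call of Phlda3 without control replicate 2 (0.111) or either oxaliplatin replicate (0.0955 and 0.184).

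Markers of other cell types were also read. Of 9 leukocyte markers, Adgre1 had 0 counts in all libraries and Ptprc, the pan-leukocyte marker, at most 1 count per library, and 3 were tested. Their summed level was 24.7 to 27.0 TPM in control, 32.6 to 33.0 TPM in oxaliplatin and 27.5 to 29.2 TPM in cisplatin, of which Cd14 gave 29.3 TPM in both oxaliplatin libraries and at most 23.9 TPM in the others. The other tested leukocyte markers did not stand above control with oxaliplatin. Cd68 was at 4.38 and 3.32 TPM in control and 3.27 and 3.06 TPM in oxaliplatin libraries. Csf1r was at 0.225 and 0.402 TPM in control and 0.273 and 0.169 TPM in oxaliplatin libraries. The sum was thus highest, through Cd14, in the group where Csf1 was highest, and its part in that result was not tested. The 4 endothelial markers summed to 0.362 to 0.418 TPM in control, 0.734 to 0.919 TPM in oxaliplatin and 0.768 to 1.01 TPM in cisplatin, mostly from Kdr. The mesenchymal sum was 6090 to 6300 TPM in control, 5450 to 5600 TPM in oxaliplatin and 5050 to 5340 TPM in cisplatin. Its lower values came mostly from Col1a1 and Col1a2, with Fn1 and Pdgfrb below control with cisplatin only. Vim went the other way (1540 and 1430 TPM in control, 1600 in both oxaliplatin, 1670 and 1760 in cisplatin libraries). Pdgfra was higher with oxaliplatin. Neither the endothelial nor the mesenchymal sum overlapped between control and either drug. Among single genes tested, 64.8% with oxaliplatin and 69.4% with cisplatin also did not overlap control. The part of these sums in the results for the cytokines was not tested. In such bulk libraries fewer cells with a transcript and less transcript per cell cannot be told apart.

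Over the 6 libraries, Shq1, Kif23 and Vcl had the log2 counts most like those of Csf1 among 10731 genes with a mean of at least 100 normalised counts (Pearson r of 0.9995, 0.9991 and 0.9954). For Il33 these were Mon1a, Rnaset2b and Efhd2 (0.9989, 0.9951 and 0.9944), and for Lif Hdhd2, Lmtk2 and AL805899.1 (0.9978, 0.9965 and 0.9962). Vcl, which encodes vinculin, a protein of cell adhesions, had normalised counts of 14840 and 15300 in control, 19170 and 18550 in oxaliplatin, and 14950 and 15800 in cisplatin. The 6 points share libraries and depth, and with so many genes compared a high r is a description only.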

How the data were processed

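Poly(A) RNA of 6 TRAMP-C2 libraries, made with a stranded kit, was analysed from 1 count table. Its values, as deposited by the authors, are unscaled expected counts, in which reads that fit several genes are shared among them. The submitters' processing notes name RSEM 1.3.0, STAR 2.5.3a and GRCm38.p6, whereas the methods of the study name a different counting program for RNA-seq in vitro. Whether counting used strand is not given in the sources used here. Of 54446 gene identifiers 54409 matched GENCODE M21, 53229 with the same version.

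Expected counts were rounded. The 14956 genes that reached 10 counts in 2 or more libraries were fitted in 1 DESeq2 model (version 1.42.0, R 4.3.3) over all 6 libraries with group as the factor, median-of-ratios size factors (0.964 to 1.08), two-sided Wald tests and unshrunken log2 fold changes. P values were adjusted by Benjamini-Hochberg over all genes tested in each comparison, at 0.05, with independent filtering at 0.1. The scripts were tested on simulated data.

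Each choice was then changed in turn. The test was replaced by the quasi-likelihood test of edgeR (version 4.0.16), size factors by TMM or library totals, and the limit on counts by none or by 10 counts in all libraries. Independent filtering was switched off, the replicate number was added as a block, the fit was restricted to the 4 libraries of a comparison, changes were tested against an absolute log2 value of 1, and single libraries were dropped. TPM was also computed with the longest transcript. The block crossed between the drugs, the search for AU-rich elements, and the receptors and Zfp36 named outside the rule were chosen after seeing the data. That search used, for each gene, the 3′ untranslated region of its longest protein-coding transcript with a stop codon.

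The rule named all members, the 3 genes of each list with the smallest p with either drug, and the 3 genes most like each called member. A few of the genes named by it or listed as markers are not reported here. The members and lists were chosen with earlier results of these data known, so counts within lists are descriptions. Values of genes that overlap an antisense partner or have a near-identical copy are uncertain. Poisson intervals and the level of 3 counts cover counting error only.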

Additional observations from a re-analysis of the deposited data

How the results depend on the processing

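The calls of Csf1 (oxaliplatin against control, oxaliplatin against cisplatin) and of Il33 (oxaliplatin against cisplatin) kept their direction and side of the threshold in every alternative but a minimum absolute log2 fold change of 1. Under that setting 0 members were called in each of the 3 comparisons. The receptor, signalling, processing, mRNA decay and other cytokine lists had 0 called. The transcription factor and p53 target lists had 1 called each.

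Members called with oxaliplatin against control were 2, and 3 in edgeR, with total-count scaling and with at least 10 counts in every library, and 1 to 2 when any 1 library was left out. With cisplatin against control 1 was called, and 3 in edgeR, 2 without independent filtering, 0 with total-count scaling, 0 with the replicate block and 0 to 1 when any 1 library was left out. Oxaliplatin against cisplatin gave 2, and 2 to 2 with a library left out. For cisplatin against control, the counts in edgeR and without independent filtering included Il6, which entered the test only through its high cisplatin counts. For Csf1 with cisplatin against control the log2 fold change turned to -0.0393 with total-count scaling and ran from -0.0259 to 0.0422 with a library left out, and for Il34 between the drugs it ran from -0.45 to 0.12.

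Called with either drug were 9 signalling genes, 2 to 7 with a library left out, and 8 mRNA decay regulators, 2 to 7. For the other cytokines, 2 became 6 in edgeR, 1 with total-count scaling, 1 without a filter, 1 in the 4 libraries compared, 0 with the replicate block, and 0 to 0 with a library left out.

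Over all genes edgeR called 4618 against 3028 with DESeq2 (oxaliplatin against control), 4773 against 2977 (oxaliplatin against cisplatin) and 6112 against 4203 (cisplatin against control), and the replicate block 1958, 1861 and 2833. Same-numbered libraries deviated together by correlations of 0.0715 (control and oxaliplatin), -0.0477 (control and cisplatin) and -0.191 (the drugs). Without a reference value, these correlations do not settle whether same-numbered libraries shared more than a number. With the pairing crossed between the drugs, a block chosen after seeing the data, 1196 genes and 2 members were called. Il6 and Il34 are limited by depth, at 1 to 31 counts per library. With 2 libraries per group, a lone remaining library was assumed to vary like the others. Fewer genes were called over all genes tested in each fit with a library left out. A call lost in such a fit therefore does not show that it rested on the library dropped.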
